A study of Mus musculus with 2 samples.

Results

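The 33 genes described here encode enzymes of fatty acid oxidation and of ketone body metabolism. They were chosen by symbol, from a list of the steps of these pathways, and all 33 were found among the 55246 loci of the deposited table. The samples were regulatory T cells (Treg cells, the CD4 T cells that restrain immune responses and rely on Foxp3, a transcription factor) taken from lamina propria of the colon, which lies beneath the gut epithelium, in female mice. One group was wild type (WT), and the other, Exon2KO, carries a Foxp3 allele without exon 2; the labels give no strain, age, treatment or sorting scheme. Each genotype had 1 library, and the labels do not say whether it came from 1 mouse or from a pool. No difference could therefore be set against a spread between mice. Every interval below covers counting error in these 2 libraries only.

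In mitochondrial fatty acid oxidation, an acyl-CoA synthetase activates a fatty acid, the carnitine shuttle carries it across the mitochondrial membranes, and repeated cycles of dehydrogenation, hydration, dehydrogenation and thiolysis shorten it and release acetyl-CoA. Peroxisomes run a similar cycle on very long and branched chains. Ketone bodies are made from acetyl-CoA and are turned back into it by tissues that burn them, and in T cells fatty acid oxidation has been studied as a fuel pathway of regulatory and memory cells.

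The libraries held 16281133 reads (WT) and 15412425 reads (Exon2KO) assigned to genes. Foxp3 itself had 6991 and 20946 reads, a count over the whole gene that need not fall when 1 exon is lost and so does not test the genotype label. Treg markers differed in both directions: of 6, Foxp3 was called higher in Exon2KO by the 2-fold rule given below, and 3 were called lower. These were Ikzf2, a transcription factor of many Treg cells (8476 and 440 reads, a log2 ratio of -4.29), and the receptor genes Tnfrsf18 (34363 and 11626, -1.59) and Tnfrsf4 (66016 and 25936, -1.37). Ctla4 (79358 and 132229) and Il2ra (2968 and 2370) were not called. The 8 general T cell markers summed to 61392 and 53812 reads, and 6 of their ratios were below 0. Of these markers 0 were called higher and 1 lower, Cd5, an inhibitory receptor (5894 and 2908 reads, -1.04), while Cd4 had 4593 and 5367 reads (0.20). Genes of other cells were present too: 8 B and plasma cell markers, led by Igkc, took 6.02% of reads in WT and 5.52% in Exon2KO. The 4 CD8 and gamma-delta T cell markers summed to 298 and 1144 reads, with Tcrg-C1, a gamma chain constant gene, called higher (123 and 1034) and Cd8a called lower (23 and 6). The part of these differences in the members' ratios was not tested. In bulk RNA, fewer cells of a type and less RNA per cell cannot be told apart.

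None of the members with enough reads to test differed by as much as 2-fold between the libraries. Of the 33 genes, 31 had at least 10 reads over both libraries and were tested with an exact binomial test of their reads against library sizes scaled by TMM (trimmed mean of M values). A gene was called when its Benjamini-Hochberg adjusted p, taken over all 17363 genes tested, was below 0.05 and the libraries differed by 2-fold or more. By that rule 0 of the 31 members were called, against 13.8% of all genes tested. Without regard to fold, 13 members had an adjusted p below 0.05, which is 41.9% of them, close to the 41.3% of all genes tested. Of these, 3 were higher in the Exon2KO library (19.5% of all genes) and 10 were lower (21.8%). With total counts as the scaling, 4 were higher, with Acsl4 added, and 10 lower, against 27.3% and 16.2% of all genes. At an unadjusted p below 0.05 there were 15, or 48.4%, against 47.4% of all genes tested. With a smaller threshold of 1.5-fold, 5 members were lower (16.1%, against 10.6% of all genes tested) and 0 were higher (against 10.6%). The 5 were Acsl3, Acadsb, Hsd17b4, Hadh and Cpt1a. At this threshold DESeq2 size factors gave 6 lower, with Acadl added, and upper quartile scaling gave 4, without Cpt1a. Total counts gave the same 4 lower and 1 higher, Echs1. The shares of all genes depend on the read filter. With TMM and a minimum of 50 reads, 650 of 12730 genes were called higher at 2-fold and 685 lower, and 0 of 30 members. At any fold, 3 members were then higher and 10 lower with an adjusted p below 0.05, against 22.4% and 26.7% of those genes.

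The log2 ratios (Exon2KO over WT, a prior count of 2 added) ran from -0.81 to 0.53. That range holds 71.1% of all genes tested, with 10.6% below it and 18.3% above it. The median of the members was -0.11, beside 0.0045 for all genes tested, and 19 of the 31 ratios (61.3%) were below 0, as were 49.6% of all ratios. The members together took 16051 WT reads, or 0.0986% of that library (95% Wilson interval 0.0971 to 0.100), and 14680 Exon2KO reads, or 0.0952% (0.0937 to 0.0968). Relative to the scaled library sizes, the summed reads differed by a log2 ratio of -0.15 (95% interval -0.19 to -0.12). For the summed reads of all genes tested it was -0.105 (-0.106 to -0.104), and the sums of the role groups below are on the same scale. With total counts in place of TMM, log2 ratios shift upward by about 0.104, and the median of the members was -0.0018.

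**Figure D1:**
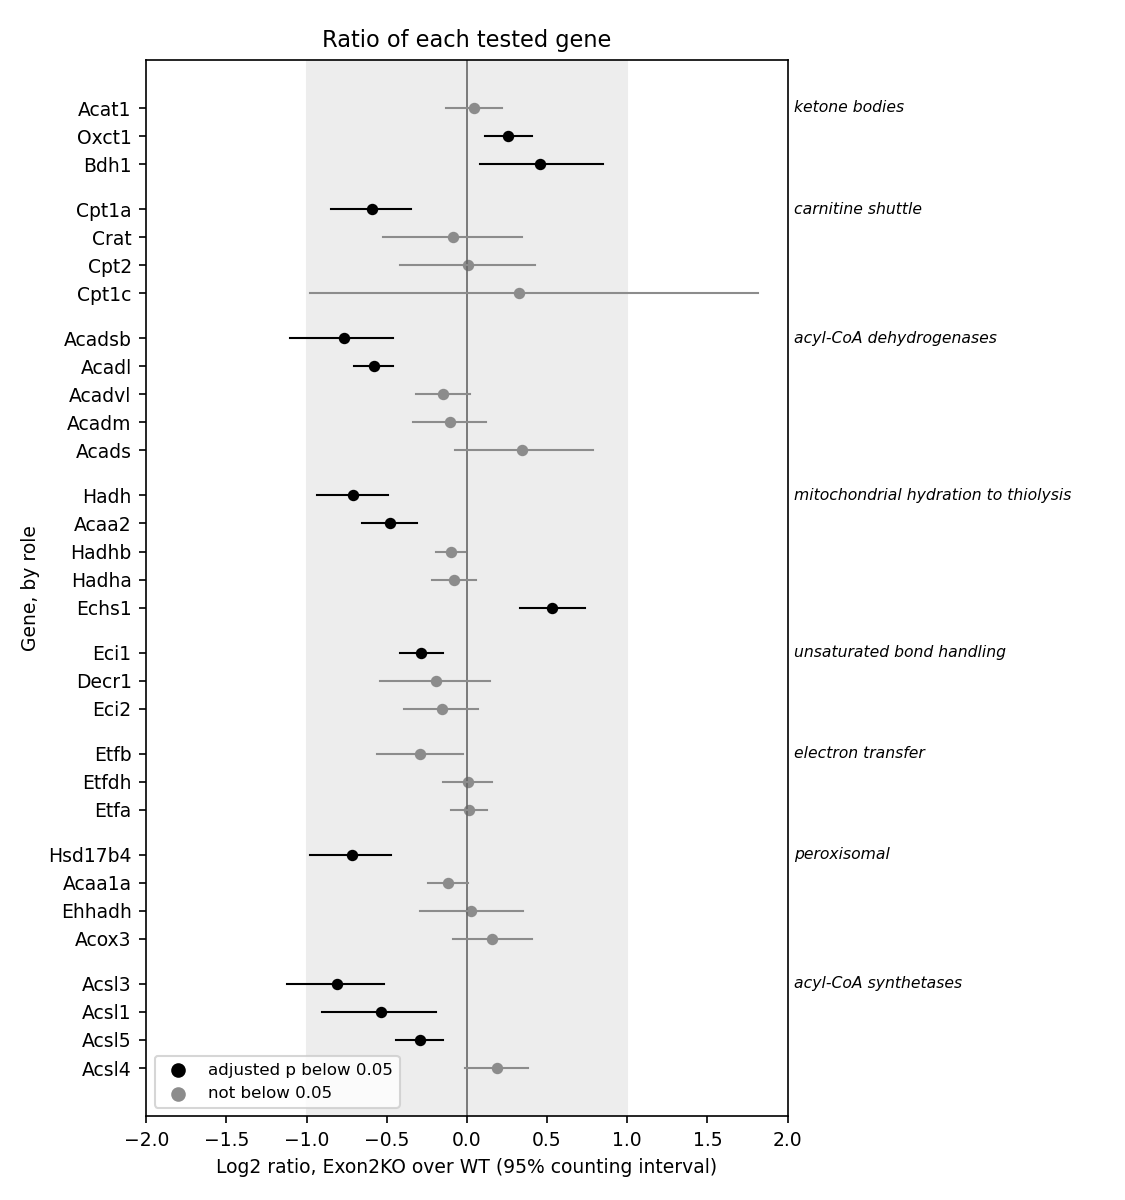
Log2 ratio of reads, Exon2KO over WT, for the 31 tested genes by role, with the 95% counting interval as a bar and the range from 2-fold lower to 2-fold higher shaded. Black genes had an adjusted p below 0.05. All 31 points lie between -0.81 and 0.53, inside the shaded range.

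The depth was enough to bound most of these differences. For 28 of the 31 tested members the whole 95% counting interval lay within 2-fold either way, and for 19 it lay within 1.5-fold. The interval reached 2-fold for 3 members, Acsl3, Acadsb and Cpt1c, the last of which had only 9 and 12 reads. The other 2 members had too few reads to test. Cpt1b had 2 reads in WT and 1 in Exon2KO, and Bdh2 had 0 in both, which allows a share of up to 1.84e-05% in WT and 1.95e-05% in Exon2KO, the level of 3 reads.

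Sequence upstream of the start is shown for Hadh, Cpt1a, Acadsb and Acsl3, which are 4 of the 5 members lower by at least 1.5-fold (that of Hsd17b4 is not shown), and for Echs1, with the highest ratio. It is also shown for Hadha and Hadhb, which start back to back. The sequences are from RefSeq (GRCm38.p6), written 5′ to 3′ on the strand of the gene and cut to the part that holds no exon of GENCODE M21. Capitals mark matches, on either strand, to AGGTCA, the core hexamer that nuclear receptors such as the PPAR family bind, to GGGCGG, the GC box, and to CCAAT. No matches share a base.

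Hadha and Hadhb, shared, chr5:30155163-30155247, plus strand: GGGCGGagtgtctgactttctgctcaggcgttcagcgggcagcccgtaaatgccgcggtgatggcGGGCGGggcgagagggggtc
Hadh, chr3:131272102-131272351, minus strand: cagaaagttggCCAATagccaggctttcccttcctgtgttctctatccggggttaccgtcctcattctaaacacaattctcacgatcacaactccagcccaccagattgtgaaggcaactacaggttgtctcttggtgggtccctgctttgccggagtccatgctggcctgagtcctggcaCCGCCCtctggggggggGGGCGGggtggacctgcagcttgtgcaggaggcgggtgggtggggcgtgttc
Cpt1a, chr19:3323051-3323284, plus strand: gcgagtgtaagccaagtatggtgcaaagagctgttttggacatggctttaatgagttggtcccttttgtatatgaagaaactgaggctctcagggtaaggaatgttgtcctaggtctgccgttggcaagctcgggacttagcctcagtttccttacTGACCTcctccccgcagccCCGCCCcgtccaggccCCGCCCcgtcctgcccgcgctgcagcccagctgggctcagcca
Acadsb, chr7:131410522-131410600, plus strand: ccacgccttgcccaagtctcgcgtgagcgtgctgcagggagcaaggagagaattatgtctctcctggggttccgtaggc
Acsl3, chr1:78657575-78657824, plus strand: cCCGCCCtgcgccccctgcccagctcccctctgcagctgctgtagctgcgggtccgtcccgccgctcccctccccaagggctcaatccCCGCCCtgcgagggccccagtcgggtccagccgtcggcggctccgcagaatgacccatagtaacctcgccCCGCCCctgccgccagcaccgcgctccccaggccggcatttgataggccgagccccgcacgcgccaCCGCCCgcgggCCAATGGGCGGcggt
Echs1, chr7:140116477-140116671, minus strand: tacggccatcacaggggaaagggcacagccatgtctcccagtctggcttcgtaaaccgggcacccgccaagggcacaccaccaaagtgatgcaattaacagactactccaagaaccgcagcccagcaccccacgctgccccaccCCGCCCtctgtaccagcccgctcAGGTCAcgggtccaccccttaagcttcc

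The stretches have a GC content of 58.1% (Cpt1a) to 75.6% (Acsl3). The nuclear receptor hexamer stands in the Cpt1a and the Echs1 stretch, 1 in each. Over windows from 250 bases before to 50 after the start, which were found for 27 of the 33 members, 20 held a GC box (74.1%), against 46.3% of 17492 protein-coding genes. The hexamer was found in 5 of the 27 (18.5%, against 14.5%) and CCAAT in 12 (44.4%, against 39.0%). The comparison genes were not limited to genes with reads here, and no set of like expression was compared. A match of letters is a description and not evidence that a factor binds there.

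Ketone body genes were the role group with the highest median ratio, 0.26 over 3 tested members, and all 3 ratios were above 0. Bdh1, the mitochondrial dehydrogenase that interconverts acetoacetate and beta-hydroxybutyrate (chromosome 16, 31422280 to 31458901), had 99 WT reads and 139 Exon2KO reads, at 6.31 and 8.70 CPM (reads scaled to library size). Its log2 ratio was 0.46 (0.08 to 0.85), with an adjusted p of 0.042 by the exact binomial test, which was no longer below 0.05 without the read filter, since more genes were then tested. Oxct1, the enzyme that commits acetoacetate to oxidation by attaching CoA (chromosome 15, 4026383 to 4155344), had 701 and 854 reads. Its log2 ratio was 0.26 (0.11 to 0.41), so it was 1.197-fold higher in the Exon2KO library. Acat1, the mitochondrial thiolase at the junction of ketone and isoleucine metabolism, had 536 and 563 reads, and its interval of -0.13 to 0.22 holds 0. The summed reads of the group, 1336 and 1556, gave a log2 ratio of 0.19 (0.09 to 0.30), the highest of the 8 role groups.

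Most markers of the colon epithelium were higher in the Exon2KO library. Of 20 such markers, 18 were tested, and 14 were called higher (against 7.21% of all genes tested) and 0 lower (6.61%). At any fold, 2 of the 18 were lower with an adjusted p below 0.05 by the exact binomial test (against 21.8% of all genes tested). These were Epcam (782 and 609 reads, a log2 ratio of -0.39) and Muc2 (41 and 21, -0.93). The summed reads of the list were 1703 in WT and 8563 in Exon2KO. Within it Aqp8 was at 0 in WT and Cldn4 at 0 in Exon2KO. The part of epithelial RNA in the reads of the ketone group was not tested.

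In the carnitine shuttle, Cpt1a was lower in the Exon2KO library, and its ratio was below that of Cpt2. Cpt1a, the outer membrane acyltransferase that controls entry of long chains (chromosome 19, 3323301 to 3385732), had 330 WT reads and 222 Exon2KO reads, at 21.02 and 13.9 CPM. The log2 ratio was -0.59 (-0.85 to -0.35), a 1.51-fold lower level, with an adjusted p of 1.04e-05 by the exact binomial test. This lies just past 1.5-fold, and scaling by upper quartile or total counts brought it inside, to -0.56 and -0.49. Cpt2, which regenerates acyl-CoA on the inner membrane, had 95 and 97 reads and a log2 ratio of 0.0042 (-0.42 to 0.43). The difference between these 2 genes, Cpt1a minus Cpt2, was -0.60 (-1.10 to -0.11), with a p of 0.028 by Fisher's exact test, adjusted over the 10 pairs compared.

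Cpt1a was the main form of its family in both libraries. On the deposited FPKM scale, which divides reads by gene length, it made up 97.2% of the summed Cpt1 level in WT and 95.5% in Exon2KO. The muscle form Cpt1b was near 0, and the neuronal form Cpt1c had an FPKM of 0.102 and 0.135. Crat, which moves acetyl groups between carnitine and CoA, had 94 and 90 reads, and its interval of -0.52 to 0.34 holds 0.

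The acyl-CoA dehydrogenases, which start each cycle, had ratios of both signs. Acadl, the long-chain enzyme (chromosome 1, 66830839 to 66863277), had 1363 WT and 926 Exon2KO reads, and its log2 ratio was -0.58 (-0.71 to -0.46). At 1.498-fold lower it lay just short of the 1.5-fold threshold, which it passed with DESeq2 size factors (-0.59). Acadsb, the short/branched-chain enzyme of isoleucine breakdown (chromosome 7, 131410601 to 131448944), had 219 and 130 reads. Its log2 ratio was -0.77 (-1.10 to -0.46), or 1.71-fold lower. For the very-long-chain enzyme Acadvl (587 and 539 reads), the medium-chain enzyme Acadm (330 and 312) and the short-chain enzyme Acads (83 and 108), the intervals hold 0. Acads had the only ratio above 0 in the group, at 0.35 (-0.07 to 0.78). The group had 2582 reads in WT and 2015 in Exon2KO, the largest share of them from Acadl, and a summed log2 ratio of -0.38 (-0.47 to -0.30), the lowest of the 8 groups.

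The enzymes that follow in the cycle went both ways. Echs1, the short-chain enoyl-CoA hydratase (chromosome 7, 140105710 to 140116476), had 335 WT reads and 494 Exon2KO reads, at 21.3 and 30.9 CPM, and had the highest ratio of the members at 0.53 (0.33 to 0.74). Hadh, the short- and medium-chain hydroxyacyl-CoA dehydrogenase that takes the next step (chromosome 3, 131233419 to 131272101), had 436 and 271 reads, at 27.8 and 17.0 CPM, and a ratio of -0.71 (-0.94 to -0.49). The counting intervals of these successive enzymes do not overlap. This pair was not among the 10 pairs planned for Fisher's exact test, and its difference was not tested. Acaa2, the thiolase that ends the cycle, had 677 and 493 reads and a ratio of -0.48 (-0.65 to -0.31).

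The subunits of the trifunctional protein, which handles the same steps for long chains, had like ratios. Hadha, the alpha subunit (chromosome 5, 30118304 to 30155162, minus strand), had 895 and 863 reads, a log2 ratio of -0.08 (-0.21 to 0.06). Hadhb, the beta subunit (30155248 to 30184593, plus strand), had 2019 and 1918, a ratio of -0.0997 (-0.19 to -0.0089). With total counts both ratios turned positive, to 0.027 and 0.0051. There were 0.443 Hadha reads per Hadhb read in WT and 0.450 in Exon2KO. Their difference was 0.02 with an interval of -0.14 to 0.19, which bounds any divergence within the pair to well under 1.5-fold. These genes start 85 bases apart on opposite strands, in the intergenic stretch printed above, which holds 2 GC boxes.

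All 3 enzymes that prepare unsaturated fatty acids had ratios below 0. Eci1, which shifts double bonds (chromosome 17, 24426683 to 24439316), had 999 and 835 reads and a log2 ratio of -0.28 (-0.42 to -0.15). It also had the highest FPKM of the members in both libraries, 58.1 in WT and 48.1 in Exon2KO. The intervals of Eci2 (329 and 300 reads), found in mitochondria and peroxisomes, and of Decr1 (153 and 136), the dienoyl-CoA reductase, hold 0.

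Of the genes that pass electrons from the dehydrogenases to the respiratory chain, 0 of 3 had an adjusted p below 0.05, a count too small to set against the 41.3% of all genes tested. Etfa, the alpha subunit of the electron transfer flavoprotein (chromosome 9, 55454508 to 55512243), had 1314 and 1349 reads, and its log2 ratio of 0.01 had an interval of -0.10 to 0.12. Etfdh, the membrane oxidoreductase that accepts these electrons, had 712 and 727 reads, at 0.0043 (-0.15 to 0.16). Etfb, the beta subunit, had 255 and 212 reads, at -0.29 (-0.56 to -0.02), with an adjusted p of 0.074 by the exact binomial test. Etfa minus Etfb was 0.30 (0.01 to 0.60), and the adjusted p of that pair by Fisher's exact test was 0.066.

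**Figure D2:**
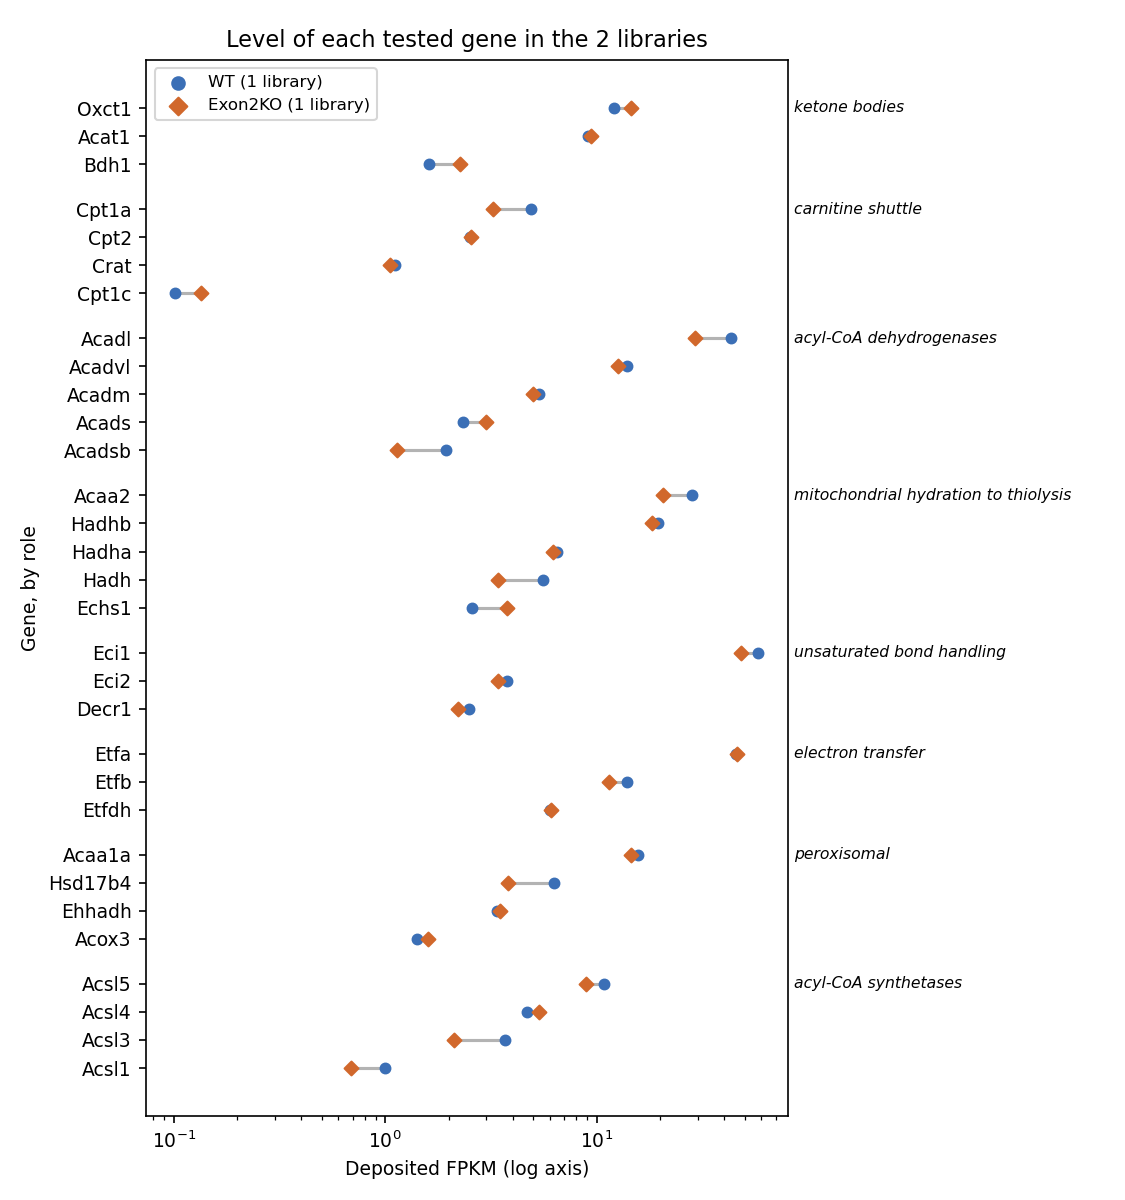
Deposited FPKM (log axis) of the 31 tested genes by role, with a blue circle for the WT library and an orange diamond for the Exon2KO library. Eci1, Etfa and Acadl are the highest in both, at 58.1, 45.4 and 43.1 in WT, and Cpt1c is the lowest.

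Levels spanned a wide range that both libraries shared. Across the 31 tested genes, which are not independent replicates, the rank correlation of FPKM between the libraries was 0.966. The median FPKM of these genes was 5.35 in WT and 3.82 in Exon2KO, beside 2.44 and 2.51 for all genes tested. The 5 highest genes, Eci1, Etfa, Acadl, Acaa2 and Hadhb, came in the same order in both. FPKM divides by the deposited gene length, which ranges from 1091 bases for Eci1 to 11521 for Acox3, so the order of genes rests on those lengths as well as on reads. Echs1 shows this, with a deposited length of 8286 bases and an FPKM of only 2.56 in WT.

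Among the 4 peroxisomal genes, 1 had an adjusted p below 0.05 by the exact binomial test, against 41.3% of all genes tested. It was Hsd17b4, the multifunctional enzyme that hydrates and dehydrogenates in peroxisomes (chromosome 18, 50128201 to 50196269). It had 336 WT and 207 Exon2KO reads, and its log2 ratio was -0.72 (-0.98 to -0.47). Ehhadh, the other bifunctional enzyme of the organelle, had 159 and 165 reads, at 0.03 (-0.30 to 0.35), and the intervals of these enzymes do not overlap. The difference between Hsd17b4 and Ehhadh was not tested, as they were not among the 10 planned pairs. Acaa1a, the peroxisomal thiolase, had 1085 and 1017 reads, at -0.12 (-0.24 to 0.0056). Its near copy Acaa1b had 2 reads in each library, and the division of reads between them is uncertain. Acox3, an oxidase of branched chains, had 257 and 292 reads, at 0.16 (-0.09 to 0.41).

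The acyl-CoA synthetases had the lowest median ratio of the 8 role groups, -0.42, and differed from each other. Acsl3, a synthetase of the endoplasmic reticulum and lipid droplets (chromosome 1, 78657825 to 78707743), had 253 WT reads and 146 Exon2KO reads, at 16.1 and 9.13 CPM. Its ratio of -0.81 (-1.12 to -0.52), or 1.76-fold lower, was the lowest of all members, with an adjusted p of 2.51e-07 by the exact binomial test. Acsl1 had 165 and 115 reads, at -0.54 (-0.90 to -0.19). Acsl5, the family member with the most reads (829 and 688), was at -0.29 (-0.44 to -0.15). Acsl4, which prefers arachidonic acid and supplies the lipids oxidised in ferroptosis (chromosome X, 142317993 to 142390535), was the one of these 4 with a ratio above 0, with 397 and 460 reads and 0.19 (-0.01 to 0.38). With total counts it was 0.29, with an adjusted p below 0.05 by the exact binomial test.

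Acsl4 separated from each of the other synthetases by Fisher's exact test. The difference Acsl3 minus Acsl4 was -1.01 (-1.37 to -0.64), with a p of 1.59e-07 adjusted over the 10 pairs. It was -0.73 (-1.14 to -0.33) for Acsl1 minus Acsl4, and 0.48 (0.23 to 0.73) for Acsl4 minus Acsl5. Acsl3 minus Acsl5 was -0.52 (-0.86 to -0.19). These ratios of reads within a library do not depend on library scaling. As a share of the summed FPKM of the 4 genes, Acsl4 made up 23.1% in WT and 31.4% in Exon2KO, Acsl3 18.3% and 12.4%, and Acsl5 53.6% and 52.2%.

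**Figure D3:**
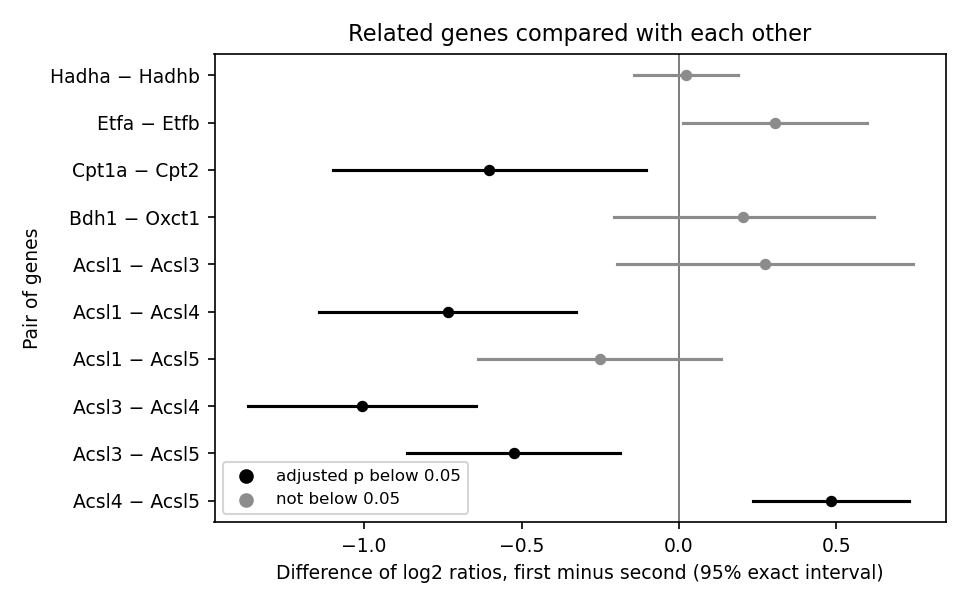
Difference of log2 ratios within 10 pairs of related genes, first minus second, with the exact 95% interval. The 5 pairs in black had an adjusted p below 0.05: Cpt1a with Cpt2 and 4 of the 6 synthetase pairs, while Hadha minus Hadhb lies at 0.02.

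A further 77 genes of the same pathways were counted as 4 lists, and 60 of the genes were tested. Among them 5 were called higher, against 7.21% of all genes tested, and 2 lower, against 6.61%. Together that is near the 13.8% of all genes called in either direction. The median ratio was -0.05, beside 0.0045 for all genes tested. In the mitochondrial list 0 of 17 genes were called higher and 1 lower. That was Acacb, the acetyl-CoA carboxylase whose product malonyl-CoA inhibits the Cpt1 enzymes, with 109 and 52 reads, a log2 ratio of -1.06 (-1.60 to -0.60). In the peroxisomal list 0 of 18 tested genes were called, and their median was 0.00089. Among 13 tested genes of lipid release and regulation, Pparg, a nuclear receptor of lipid metabolism, was called lower with 59 and 25 reads, at -1.20 (-2.001 to -0.57). In the same list the kinase subunit gene Prkaa2 was called higher, with 0 and 12 reads. The 95% interval of its log2 ratio starts at 1.45. Ppara, the receptor that drives oxidation genes in liver, had 0 and 4 reads, and its coactivator Ppargc1a had 1 and 0. These last 2 were named after their values were seen.

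Calls in the higher direction lay mostly in the list of fatty acid activation and uptake, where 4 of 12 tested genes were called higher (against 7.21% of all genes tested) and 0 lower (6.61%). Fabp2, the intestinal fatty acid binding protein, had 0 WT and 169 Exon2KO reads, and the interval of its log2 ratio starts at 5.48. Fabp4, another fatty acid binding protein, had 23 and 78 reads, a log2 ratio of 1.65 (1.05 to 2.47). Cd36, a fatty acid receptor, had 1 and 21 reads, with an interval of 1.73 to 9.74. Acsm3, a medium-chain synthetase, had 0 WT and 13 Exon2KO reads, and the interval of its log2 ratio starts at 1.58. The list median was 0.23, the same with the genes at 0 in WT set against 3 WT reads, the level that 0 reads allow. The epithelial sum given above was also higher in the Exon2KO library. The 8 myeloid markers summed to 643 and 796 reads, with 0 called. Of these, Lyz2 (317 and 405) and Cd68 (168 and 243) had an adjusted p below 0.05 by the exact binomial test. The 8 stromal and endothelial markers summed to 1180 and 1142, with most reads from Pecam1 (917 and 834, not called). Of the stromal and endothelial markers 3 were called higher (against 7.21% of all genes tested) and 0 lower (6.61%). They were Cdh5 (0 and 15 reads), Vwf (5 and 31) and Lum (6 and 20). The part of other cells in the 4 calls of the uptake list was not tested.

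**Figure D4:**
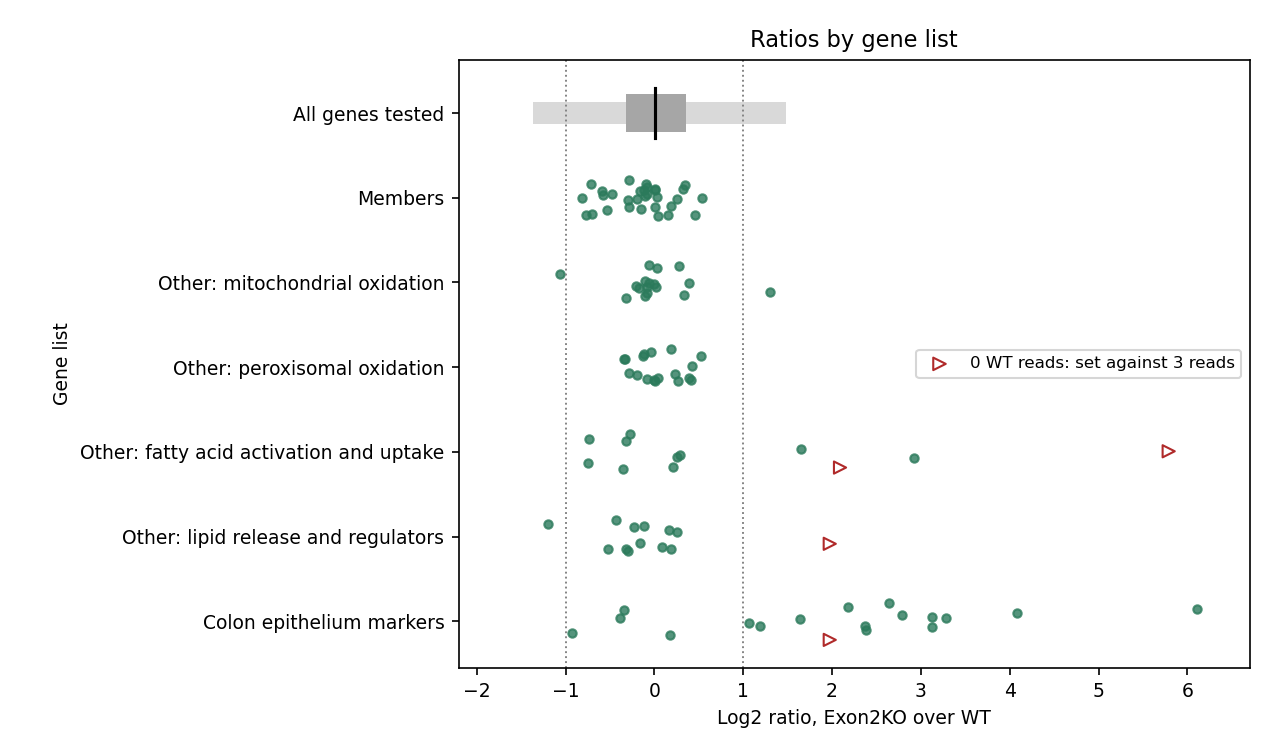
Log2 ratio of each tested gene by list, with dotted lines at 2-fold and, for all genes tested, the 25th to 75th percentile as a dark bar and the 5th to 95th as a light bar. Open triangles are genes with 0 WT reads, set against 3 WT reads. The members stay between the dotted lines, while Fabp2 and most epithelial markers lie to the right.

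No tested member passed the test of its own ratio once a spread between samples was assumed; the differences within pairs were not tested that way. When libraries of a genotype were assumed to vary with a BCV (biological coefficient of variation) of 0.2, edgeR's exact test gave 0 members an unadjusted p below 0.05 and 0 calls, against 6.42% of all genes. The lowest adjusted p was 0.402. The authors' deposited table gives a p-value for 32 members. The lowest adjusted value in the authors' deposited table is 0.450, for Acsl3, and 0 members are below 0.05, against 4.58% of 22447 genes. This is not a separate line of evidence: for 18 of the 31 tested members the unadjusted p in the authors' deposited table equals that of edgeR's exact test at a BCV of 0.2 (within a relative tolerance of 1e-05), and the largest difference was 3.25%.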

How the data were processed

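RNA came from a column kit and entered an NEBNext Ultra library preparation, per the labels' protocols. The submitters' processing notes name HISAT2 2.0.5, StringTie 1.3.3b, featureCounts 1.5.0-p3, DESeq2 1.16.1 and build mm10, without roles; the use of strand is not given in the sources used here. The deposited table holds whole read counts for each gene. It also holds, from the authors, FPKM (reads per gene length and library size), a scaled count signal that was not used here, their log2 fold change, and raw and adjusted p-values. Coordinates are as deposited; 30 of 33 members have the same ones in GENCODE M21 (GRCm38).

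Counts were scaled with TMM (edgeR 4.0.16, R 4.3.3; factors 0.964 for WT and 1.04 for Exon2KO). The 2-sided exact binomial test, Clopper-Pearson 95% intervals, Wilson intervals for shares and Fisher's exact test used scipy 1.17.1. With 1 library a group, edgeR's quasi-likelihood model cannot estimate a spread, so these tests compare libraries, not genotypes. Reads carry no molecular identifiers, so intervals cover counting error only. The procedure was tested on simulated data. All 33 members are named; other pathway genes are named where called, and some are not reported here. Members and lists were chosen with earlier results of these data known. Alternatives in scaling, filter, prior count, fold and assumed spread were tried.

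Of the members, 10 overlap a locus with at least 10 reads. On the other strand these are Acaa1a with Myd88 (1408 and 1278 reads), Acsl5 with Zdhhc6 (575 and 521), Crat with Dolpp1 (135 and 135), Acadvl with Dvl2 (116 and 117), Etfdh with 4930579G24Rik (130 and 82), Oxct1 with BC037032 (44 and 65), Echs1 with Paox (22 and 37) and Bdh1 with Gm15743 (14 and 8). On the same strand they are Acsl3 with Utp14b (41 and 32) and Hsd17b4 with Cd63-ps (30 and 33). Reads in shared stretches are uncertain.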

Additional observations from a re-analysis of the deposited data

How the results depend on the processing

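No member was called higher or lower at 2-fold under any scaling, read filter, prior count or assumed spread that was tried. A fold threshold of 1.5 gave 5 members lower (Acsl3, Acadsb, Hsd17b4, Hadh and Cpt1a) and 0 higher, and 1843 genes lower in all, as the threshold itself implies. Total counts reversed the sign of Hadhb (0.0051), Hadha (0.027) and Crat (0.016), which follows from a shift of 0.104 in the median of all genes. That scaling gave 60.1% of all calls as higher, against 52.2% with TMM. The medians of the carnitine shuttle, hydration to thiolysis and peroxisomal groups also changed sign with it, to 0.06, 0.0051 and 0.06. A minimum of 50 reads left 650 genes higher and 685 lower in all, from 12730 tested, against 1252 and 1148, and Bdh1 was the one member whose adjusted p rose above 0.05 when the read filter was dropped. An assumed BCV of 0.2 left 579 and 536, and of 0.4 left 86 and 78. No paired analysis was possible because each genotype has 1 library, which also leaves no library to omit. Depth limits Cpt1b, Bdh2 and Cpt1c.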

Other observations

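The genes here were chosen after their values were seen. Of the acetyl-CoA synthetase genes, which encode enzymes that activate acetate, 2 were lower in the Exon2KO library without being called at 2-fold: Acss2, the cytosolic enzyme, had 366 and 221 reads (log2 ratio -0.75, 95% interval -1.001 to -0.51), and Acss1, the mitochondrial one, had 111 and 67 (-0.74, -1.21 to -0.30). Acss3 had 0 reads in both. In the list of other peroxisomal genes, whose median was 0.00089, Pex5, the receptor that imports most matrix enzymes, had 271 and 398 reads (0.53, 0.30 to 0.76) and Pex7, which imports another class of them, had 613 and 819 (0.39, 0.24 to 0.55).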
